A study of Mus musculus with 2 samples.

Results

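The cells described here were splenic regulatory T cells (Tregs) that carried transcripts of follicular regulatory T cell genes. A kept cell had at least 500 detected genes, at most 10% mitochondrial unique molecular identifiers (UMIs, the tags that count single transcripts) and no UMI of the B cell gene Cd79a. It was called follicular when it held a UMI of at least 2 of the 6 genes Sostdc1, Tox2, Cxcr5, Pdcd1, Il1r2 and Tshz2 and no UMI of Ccr2 or Klrg1, which mark effector Tregs. The rule took 1580 of 14150 barcodes, 1214 of them from the CD25KO library and 366 from the CD25WT library. The other kept cells numbered 5688 in CD25KO and 5685 in CD25WT. Because the 6 genes chose the cells, their values in these cells are a description and test nothing.

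Follicular regulatory T cells are Foxp3-expressing cells that enter B cell follicles through the chemokine receptor CXCR5, carry the inhibitory receptor PD-1 (Pdcd1) and restrain germinal centre responses. Their program depends on the transcription factor Bcl6. Interleukin-2 (IL-2), acting through its receptor and STAT5, induces Blimp-1 (Prdm1), and Blimp-1 and Bcl6 repress each other. Mature follicular regulatory cells are known for low surface CD25, the alpha chain of the IL-2 receptor encoded by Il2ra.

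CD25KO cells had the genotype CD25FL/FL-tdTomato+/+-Foxp3eGFPCretERT2+/+, in which tamoxifen activates a Cre recombinase made from the Foxp3 locus that acts on floxed CD25 alleles. CD25WT cells had the genotype CD25WT/WT-tdTomato+/+-Foxp3eGFPCretERT2+/+, with the same reporters and Cre and no floxed allele. Tamoxifen was injected into the peritoneum of both groups on 5 days (2 mg/kg), the spleens were harvested on day 10, 2 spleens were pooled per library, and viable CD4 cells positive for GFP and tdTomato were sorted. The CD25KO sort alone was further restricted to cells with low CD25, so genotype and gate cannot be told apart. Each group was 1 library without a replicate, so nothing was tested and every interval below is a 95% interval for counting error only.

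The CD25KO library held 36986849 UMIs in 7530 barcodes and the CD25WT library 36971834 UMIs in 6620 barcodes. Kept cells numbered 6902 in CD25KO and 6051 in CD25WT, with a median of 4148.5 and 5229 UMIs. Follicular cells were deeper than the rest, with medians of 5227 UMIs and 1926.5 genes in CD25KO and 5794.5 UMIs and 2073 genes in CD25WT, against 3972.5 and 5192 UMIs in other kept cells. Ribosomal protein genes took 28.7% of follicular UMIs in CD25KO and 30.4% in CD25WT, against 31.7% and 40.1% in other kept cells. The libraries shared 107 barcodes, of which 26 were kept in both and 0 were follicular in both. Fewer cells of a kind and less RNA per cell cannot be told apart in the summed values below.

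Follicular cells made up 17.6% (exact Clopper-Pearson interval 16.7 to 18.5) of kept CD25KO cells and 6.05% (5.46 to 6.68) of kept CD25WT cells. The CD25KO share was 2.91 times (2.59 to 3.28) the CD25WT share. Since deeper cells are more likely to hold 2 of 6 genes, each cell was also thinned to 2000 UMIs before the rule was applied. The thinned shares were 8.88% (8.20 to 9.60) in CD25KO and 2.74% (2.34 to 3.18) in CD25WT, a ratio of 3.24 (2.72 to 3.88). The CD25KO cells were the shallower ones, and the ratio was no smaller at equal total UMIs. Ribosomal protein genes took 31.0% of kept CD25KO and 39.3% of kept CD25WT UMIs, so UMIs of other genes were not matched. Cells with a Cd79a UMI met the rest of the rule in 5 of 50 CD25KO cells and 3 of 59 CD25WT cells, and in 0 of 36 and 0 of 30 after thinning. A count of 0 in 36 and 30 cells allows a share of up to 8.33% and 10.0%, by a floor of 3 counts. That level overlaps the shares of kept cells. The cells with a Cd79a UMI also held T cell genes, with Maf in 21 of 50 and 10 of 59 and Icos in 20 and 11. They can include T cells, so they give no clean background for stray RNA.

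The gate could set these shares. Among CD25WT cells without an Il2ra UMI, 7.42% met the rule, which put the ratio at 2.37. Such cells were 3947 of the 6051 kept in CD25WT. A missing UMI is not the same as low CD25 protein, so this ratio is not matched for the gate. Among cells with a Foxp3 UMI, 14.5% in CD25KO (100 cells) and 3.63% in CD25WT (35 cells) met the rule, a ratio of 3.99. The ratio was 2.87 when 3 of the 6 genes were required, and between 2.54 (Il1r2 left out) and 3.29 (Cxcr5 left out) when the rule used 5 of them. The share was higher in CD25KO in each of these counts.

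Most members sat at the edge of the rule. In CD25KO, 707, 323, 150, 30 and 4 cells held 2, 3, 4, 5 and 6 of the genes, and in CD25WT 211, 104, 37, 12 and 2 cells did. Just outside it, 1528 CD25KO cells and 743 CD25WT cells held 1 of the genes. The exclusion of Ccr2 and Klrg1 barred 66 CD25KO cells and 4 CD25WT cells that held at least 2 of the genes, and the 66 had a median of 8879.5 UMIs. Bcl6, which the rule did not use, was detected in 16.3% of CD25KO and 22.3% of CD25WT cells with 2 genes, and in 38.1% and 39.4% of cells with 3 or more. It was detected in 6.87% and 8.21% of cells with 1 gene. The median depth ran in the same order in CD25KO, at 5619 UMIs with 3 or more genes, 4817 with 2 and 4239.5 with 1. In CD25WT it was nearly equal with 3 or more genes and with 2, at 5797 and 5782 UMIs, and 5216 with 1. The part of depth in the Bcl6 values was not tested.

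**Figure D1:**
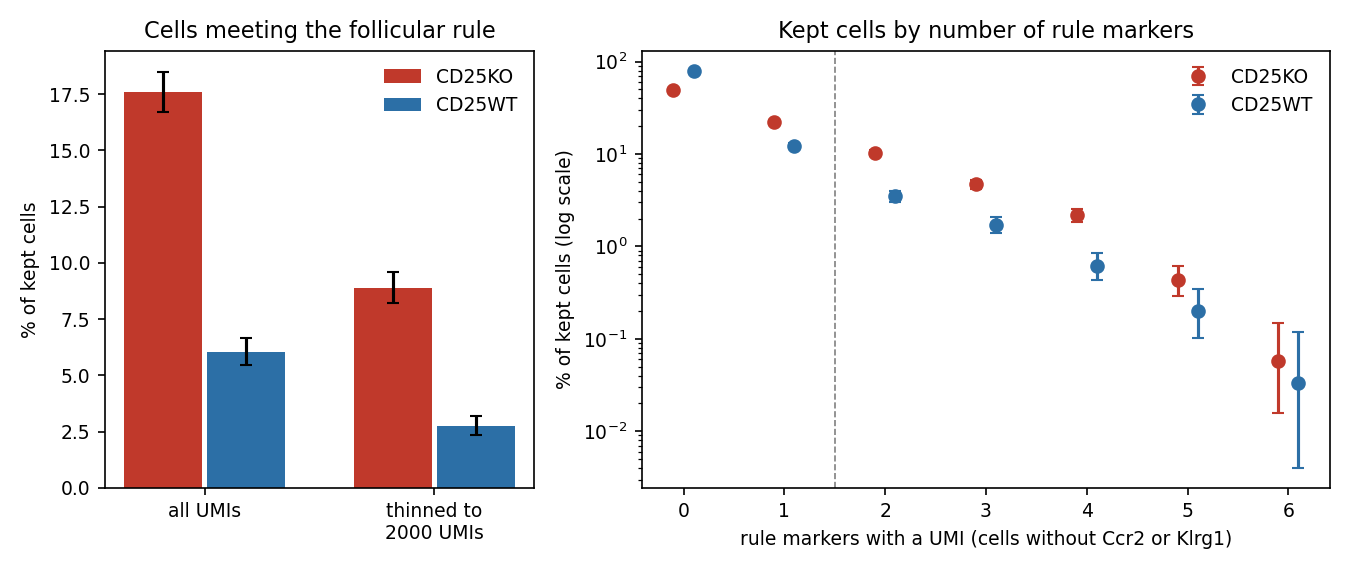
Percent of kept cells by the number of rule genes detected (with no Ccr2 or Klrg1 UMI) and percent meeting the rule, at full depth and at 2000 UMIs per cell, for CD25KO and CD25WT; error bars are 95% Clopper-Pearson intervals for counting error. The CD25KO share stands above the CD25WT share at each number of genes from 1 to 4, and in all cells meeting the rule at 17.6% against 6.05%.

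Genes of the follicular program outside the rule were looked at next. Since the rule chose cells by genes of the same program, they describe the cells and do not check the label. Maf, a transcription factor of follicular T cells, was detected in 90.2% of CD25KO and 84.7% of CD25WT follicular cells, against 63.9% and 28.2% of other kept cells. The costimulatory receptor gene Icos was detected in 69.9% and 64.8%, against 51.5% and 26.5%, and Cd200, a ligand carried by follicular T cells, in 38.0% and 39.3%, against 20.7% and 18.5%. Bcl6 was detected in 25.4% (22.9 to 27.9) and 29.5% (24.9 to 34.5), against 5.17% and 4.33%. In cells thinned to 2000 UMIs the Bcl6 shares were 15.5% and 17.7%, against 3.05% and 2.13%. All 4 genes stood higher in follicular cells in both libraries at both depths.

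Of the Treg genes, Ikzf2 was detected far more often than Foxp3. Ikzf2, which encodes the Treg factor Helios, was detected in 98.4% of CD25KO and 97.0% of CD25WT follicular cells, against 83.2% and 66.6% of other kept cells. Foxp3 was detected in 8.24% and 9.56% of follicular cells, against 10.4% and 16.3% of other kept cells, although every cell had been sorted on a reporter of the Foxp3 locus. A cell without a Foxp3 UMI can thus not be told from a cell that lacks Foxp3 at this depth. Ctla4, an inhibitory receptor gene of Tregs, was detected in 51.2% and 50.3% of follicular cells, against 39.0% and 39.1%.

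Conventional follicular helper T cells share Cxcr5, Pdcd1, Bcl6 and Icos, so their cytokine genes were looked at as well. Il21, the gene of the main helper cytokine for B cells, was detected in 7.58% (6.15 to 9.21) of CD25KO and 11.2% (8.16 to 14.9) of CD25WT follicular cells, against 0.756% and 0.334% of other kept cells and none of the 109 cells with a Cd79a UMI. Il4, the gene of another helper cytokine, was detected in 17.1% (15.1 to 19.4) and 10.4% (7.45 to 14.0), against 2.50% and 0.528%. The CD40 ligand gene Cd40lg was detected in 26.4% and 30.3%, against 17.3% and 15.9%. Il4 was in 1 of 50 CD25KO and 1 of 59 CD25WT cells with a Cd79a UMI, and Cd40lg in 9 and 10 of them. Of the follicular cells with an Il21 UMI, 91 of 92 in CD25KO and 41 of 41 in CD25WT also held Ikzf2, and 8 and 2 held Foxp3. Ikzf2 was in nearly all follicular cells, so its presence does not set the cells with Il21 apart. It was also in 23 of 50 CD25KO and 20 of 59 CD25WT cells with a Cd79a UMI. Whether that was their own or stray RNA was not tested. Whether some of these cells were helper T cells was not tested.

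Genes of other lineages differed in how often they were detected. The NK cell gene Ncr1 was seen in 0 of 1214 CD25KO and 0 of 366 CD25WT follicular cells, which by the same floor allows a share of up to 0.247% and 0.820% of cells with a UMI and does not limit cells that express the gene below detection. Another NK cell gene, Klrb1c, was detected in 2.31% and 0.273% of follicular cells, against 0.650% and 0.123% of other kept cells. Ms4a1, the B cell gene of CD20, was seen in 1 and 0 cells, while Cd79b, which encodes a chain of the B cell receptor complex, was detected in 10.3% and 9.84%, against 8.03% and 6.17%. The CD8 alpha chain gene Cd8a was seen in 0 and 1 follicular cells, while the beta chain gene Cd8b1 was detected in 6.75% and 5.46%, against 4.92% and 5.26%. The macrophage gene Lyz2 was seen in 1 and 3 follicular cells and Csf1r in 4 and 0. Of 10 B cell genes listed, 4 passed the minimum level, and their summed level was 783 counts per 1000000 UMIs (CPM) in CD25KO and 519 CPM in CD25WT follicular cells, against 477 and 268 CPM in other kept cells. Ighm, the immunoglobulin mu chain gene, made up most of it at 581 and 421 CPM, against 329 and 205 CPM. Ighm was thus higher in follicular cells in both libraries while Ms4a1 was at or near 0. The part of stray B cell RNA in the follicular values was not tested. Haemoglobin genes summed to 1564 and 3241 CPM, against 2613 and 4424 CPM, and 1 follicular cell of each library held at least 90.0% of the UMIs of each of them, so they are not read further. Of the CD8 T cell list 3 of 4 genes passed, at 196 and 161 CPM against 475 and 72.7 CPM. Most of each sum came from the chemokine gene Ccl5 and the cytotoxic granule gene Nkg7, given further below. The sums thus do not measure RNA of the CD8 chains. Of the myeloid list 1 of 8 genes passed and of the NK cell list 0 of 7.

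**Figure D2:**
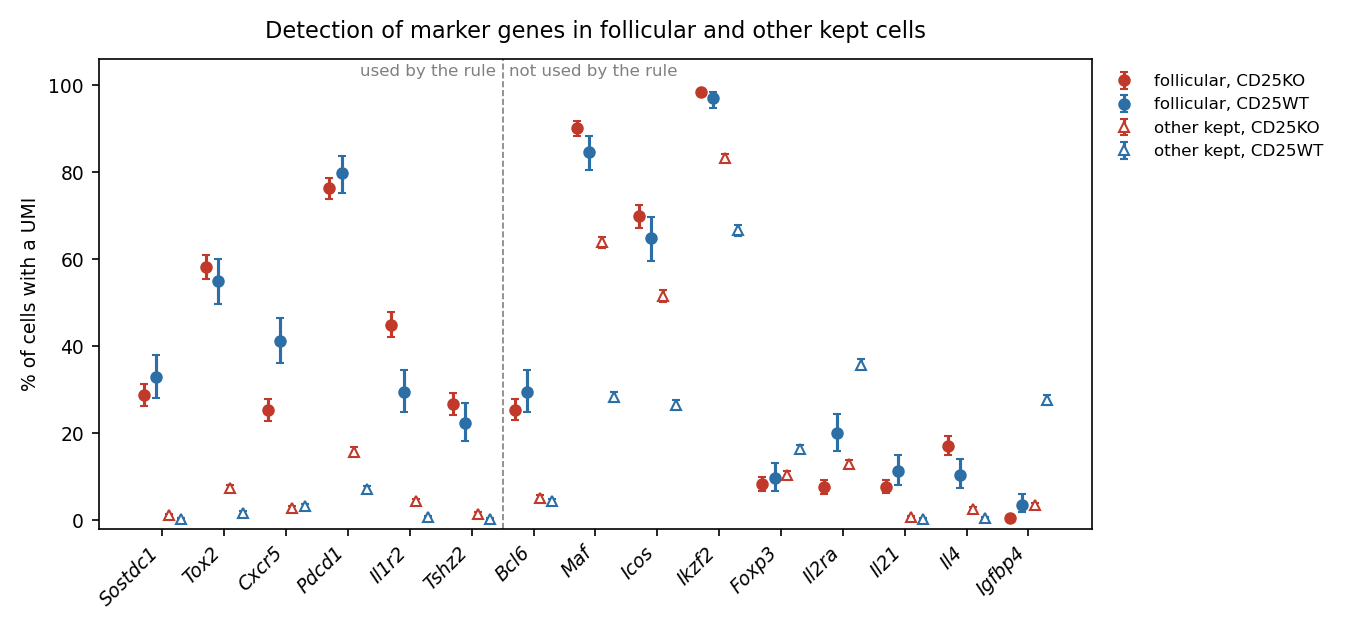
Percent of cells with at least 1 UMI of each rule gene and of genes outside the rule, in follicular and other kept cells of CD25KO and CD25WT; error bars are 95% Clopper-Pearson intervals. Ikzf2 is near its ceiling in follicular cells of both libraries (98.4% and 97.0%), while Foxp3 is under 10% in both.

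The 6 genes of the rule contributed unequally. Pdcd1 was the commonest, in 76.3% of CD25KO and 79.8% of CD25WT follicular cells, and Pdcd1 with Tox2 was the commonest pair, in 42.2% and 41.3%. Tox2, a nuclear factor that promotes follicular differentiation, was detected in 58.2% and 54.9%. Sostdc1, a secreted antagonist of BMP and Wnt signals, was detected in 28.7% and 32.8%, and the zinc finger gene Tshz2 in 26.7% and 22.4%. The libraries differed most in the other two. Il1r2, the decoy receptor for IL-1, was detected in 44.9% (42.1 to 47.7) of CD25KO and 29.5% (24.9 to 34.5) of CD25WT follicular cells, and in 35.3% (31.4 to 39.3) and 22.6% (16.4 to 29.7) after thinning. Cxcr5 ran the other way, at 25.3% (22.9 to 27.8) and 41.3% (36.2 to 46.5), and 21.0% (17.8 to 24.5) and 30.5% (23.5 to 38.1) after thinning. Cells with both Cxcr5 and Pdcd1, the pair used to sort follicular T cells, were 17.3% (15.2 to 19.5) of CD25KO and 29.8% (25.1 to 34.8) of CD25WT members. All these shares are of cells that the rule chose by the same genes. Set against all kept cells, the members with this pair were 210 of 6902 in CD25KO and 109 of 6051 in CD25WT. On that base the CD25KO share was the higher one. Cxcr5 is also a B cell gene, and it was detected in 6 of 50 and 14 of 59 cells with a Cd79a UMI, and the part of stray B cell RNA in its values was not tested.

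In summed counts, Sostdc1 (chromosome 12, 36314139 to 36318452 on mm10, plus strand) stood at 391 CPM in CD25KO and 336 CPM in CD25WT follicular cells, against 10.5 and 3.21 CPM in other kept cells. Pdcd1 (chromosome 1, 94038305 to 94052553, minus strand) stood at 262 and 287 CPM, against 53.1 and 18.7 CPM. Il1r2 (chromosome 1, 40074079 to 40125231, plus strand) stood at 205 and 108 CPM, against 21.0 and 2.10 CPM. Once cells were chosen by the rule, the libraries lay close for Sostdc1 and Pdcd1, at a log2 ratio of CD25KO over CD25WT of 0.22 (0.11 to 0.32) and -0.13 (-0.25 to -0.01), and apart for Il1r2, at 0.93 (0.75 to 1.11). Tox2 stood at 0.19, Tshz2 at 0.50 and Cxcr5 at -0.59 (-0.83 to -0.34), from 53.1 CPM in CD25KO and 79.7 CPM in CD25WT. The ratio of Sostdc1 was -0.07 after thinning and -0.11 with CD25WT cells limited to those without an Il2ra UMI, and the ratio of Tox2 was -0.08 with the same limit. In the other kept cells the same ratios were 1.70 for Sostdc1, 3.32 for Il1r2, 2.39 for Tox2 and 2.85 for Tshz2 and 0.08 for Cxcr5; those cells hold at most 1 of the 6 genes unless Ccr2 or Klrg1 barred them.

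The promoters of Il1r2, the rule gene furthest apart between the libraries, and of Pdcd1, the commonest one, are shown with that of Il2ra, the deleted gene. They run from 250 bases before to 50 after a transcript start of the gene in RefSeq, which for Il1r2 lies inside the gene interval given above (RefSeq, GRCm38.p6, printed 5′ to 3′ on the strand of the gene). Capitals mark matches to the STAT motif TTCNNNGAA, which is the same on both strands, and to the NFAT core GGAAA or its reverse TTTCC. The AP-1 motif TGANTCA was searched as well and had no match in them.
Il1r2 (chr1:40085843-40086142, plus strand): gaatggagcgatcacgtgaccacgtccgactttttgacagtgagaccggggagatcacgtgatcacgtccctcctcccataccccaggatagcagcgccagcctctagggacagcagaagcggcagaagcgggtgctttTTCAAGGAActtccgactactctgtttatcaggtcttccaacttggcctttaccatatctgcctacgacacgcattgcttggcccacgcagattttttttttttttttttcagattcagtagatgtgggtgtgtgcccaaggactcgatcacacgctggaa
Pdcd1 (chr1:94052504-94052803, minus strand): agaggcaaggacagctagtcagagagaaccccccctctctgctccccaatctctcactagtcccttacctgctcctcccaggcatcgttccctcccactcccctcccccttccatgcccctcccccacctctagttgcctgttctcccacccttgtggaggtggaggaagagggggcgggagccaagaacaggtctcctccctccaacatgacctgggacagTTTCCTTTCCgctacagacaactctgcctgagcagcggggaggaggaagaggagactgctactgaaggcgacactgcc
Il2ra (chr2:11642542-11642841, plus strand): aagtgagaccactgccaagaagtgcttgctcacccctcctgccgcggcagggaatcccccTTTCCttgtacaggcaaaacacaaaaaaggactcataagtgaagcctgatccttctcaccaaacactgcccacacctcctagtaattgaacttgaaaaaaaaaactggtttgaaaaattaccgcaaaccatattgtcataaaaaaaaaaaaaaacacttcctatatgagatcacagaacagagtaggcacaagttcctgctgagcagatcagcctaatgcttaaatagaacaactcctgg
Il1r2 holds 1 STAT motif, Pdcd1 2 NFAT cores next to each other and Il2ra 1 NFAT core. Of 32851 promoters of this length, 8.30% hold the STAT motif, 7.81% the AP-1 motif and 61.3% the NFAT core. A match is a stretch of letters and shows no binding. Sostdc1 and Cxcr5 have no entry in the table.

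Il2ra (chromosome 2, 11642807 to 11693193 on mm10, plus strand) was low in follicular cells of both libraries. It stood at 19.5 CPM (157 UMIs) in CD25KO and 59.1 CPM (161 UMIs) in CD25WT follicular cells, against 36.2 and 130 CPM in other kept cells. The log2 ratio of follicular over other cells was -0.89 (-1.15 to -0.65) in CD25KO and -1.14 (-1.38 to -0.91) in CD25WT, so Il2ra was lower in follicular cells where CD25 was intact and no CD25 gate was used. A UMI of Il2ra was seen in 7.50% and 19.9% of follicular cells and in 12.9% and 35.7% of other kept cells. Between the libraries the log2 ratio in follicular cells was -1.60 (-1.93 to -1.28), and -1.85 in the others. It was -0.78 with at least 3 rule genes required, -0.90 with the rule lacking Pdcd1 and -0.41 after thinning. Reads outside the deleted stretch count towards Il2ra, and the sort acted on its product, so the value does not check the deletion.

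The other IL-2 receptor chains and the Bcl6 and Blimp-1 pair followed different patterns. Il2rb, the beta chain, stood at 204 CPM in CD25KO and 188 CPM in CD25WT follicular cells, and Il2rg, the common gamma chain, at 275 and 240 CPM, with log2 ratios of 0.11 (-0.03 to 0.26) and 0.20 (0.07 to 0.33). Both were close to their levels in other kept cells, at 197 and 178 CPM for Il2rb and 304 and 250 CPM for Il2rg. Bcl6 (chromosome 16, 23965052 to 23988852, minus strand) stood at 59.4 and 69.4 CPM, against 12.5 and 8.68 CPM in other kept cells. Its log2 ratio between the libraries was -0.23 (-0.47 to 0.03), an interval that holds 0. It was 0.74 in cells with a Foxp3 UMI, where 17 CD25KO and 5 CD25WT cells held Bcl6. Prdm1 (chromosome 10, 44437177 to 44528501, minus strand) stood at 17.7 CPM (143 UMIs in 100 cells) and 9.92 CPM (27 UMIs in 13 cells), against 23.5 and 5.81 CPM. Its ratio was 0.84 (0.24 to 1.49) in follicular cells and 2.02 in the others. In follicular cells it was 3.31 among the 100 CD25KO and 35 CD25WT cells with a Foxp3 UMI.

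Of 15 measured genes known to respond to IL-2 or STAT5, 3 were at least 1.5-fold higher and 1 was as much lower in CD25KO follicular cells, against 5.44% higher and 3.28% lower among the 9043 genes that averaged 5 CPM or more. The median log2 ratio was -0.11, against 0.02 over the 7497 genes that averaged 10 CPM or more; it was 0.17 with each cell weighed the same, 0.66 after thinning and 0.61 with CD25WT cells limited to those without an Il2ra UMI. Higher were Prdm1, the kinase gene Pim1 (256 and 141 CPM, 0.86) and the cell cycle inhibitor gene Cdkn1a (7.56 and 4.04 CPM, 0.90, from 30 and 4 cells, and -0.088 after thinning). Lower was Il2ra alone. The feedback inhibitors Cish (24.1 and 26.5 CPM) and Socs2 (9.67 and 12.5 CPM) were within 1.5-fold between the libraries. In both libraries 4 of the 15 were at least 1.5-fold lower in follicular than in other cells, and 0 were higher. The 4 were Il2ra, Cish, Socs2 and a further feedback inhibitor gene, Socs3. Over all genes 7.61% were that much higher and 1.95% lower in both. In this and later list counts of follicular against other cells, genes entered by their mean in follicular cells alone. That favours higher over lower genes. Bcl2, a survival gene, stood at 171 CPM in CD25KO and 211 CPM in CD25WT follicular cells, against 170 and 446 CPM in other kept cells.

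At full depth few genes were 2-fold apart between the libraries in follicular cells. Of 7497 genes averaging 10 CPM or more, 47 (0.627%) differed by 2-fold or more towards CD25KO and 25 (0.333%) towards CD25WT, with a median log2 ratio of 0.02. In other kept cells 243 of 7054 genes (3.44%) were that much higher and 32 (0.454%) that much lower, with a median of 0.22. The other cells hold all non-follicular subsets, whose mix can move such counts. The counts in follicular cells were 405 and 289 after thinning, 115 and 68 with at least 3 rule genes and 737 and 370 in the 100 and 35 cells with a Foxp3 UMI, which rest on fewer UMIs. At 1.5-fold, 275 genes (3.67%) were higher and 155 (2.07%) lower in CD25KO follicular cells. The counts rest on sums of 8065994 UMIs in CD25KO and 2721968 in CD25WT, and no replicate shows how far 2 like libraries would differ.

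Among the named genes averaging 20 CPM or more and detected in both libraries, the transcription factor gene Cebpb had the highest CD25KO over CD25WT ratio. It was at 46.4 CPM (374 UMIs in 282 cells) in CD25KO and 5.14 CPM (14 UMIs in 13 cells) in CD25WT follicular cells, a log2 ratio of 3.17 (2.41 to 4.06), and of 2.42 after thinning. In other kept cells it was at 31.9 and 2.35 CPM, a ratio of 3.77, so Cebpb was higher throughout the CD25KO library. The chemokine gene Ccl1 had 375 UMIs in 15 of 1214 CD25KO follicular cells, 40.8% of them in 1 cell. It had none in the 366 CD25WT follicular cells. With the UMIs in so few cells, a floor of 3 UMIs does not bound the fold, so none is given. The motility protein gene S100a4 stood at 327 and 95.5 CPM (1.78) and the surface antigen gene Ly6a at 334 and 133 CPM (1.33), both lower than in other kept cells of the same library. The nuclear factor gene Akirin2 (63.6 and 20.6 CPM, 1.63), Cdk2ap1 (61.4 and 21.3 CPM, 1.53), the NEDD8 conjugating enzyme gene Ube2m (130 and 47.8 CPM, 1.44), the RNA-binding protein gene Hnrnpd (201 and 78.6 CPM, 1.36) and the Sin3 complex gene Sap30l (61.7 and 24.6 CPM, 1.33) were higher too. These 5 had ratios of 1.42, 1.54, 1.99, 1.57 and 1.69 in other kept cells, so none of them set the follicular cells apart. Ttn, the titin gene, stood at 60.0 and 23.1 CPM (1.37). The mitosis genes Ube2c (1.66) and Cenpf (1.30) were also among the 12, but 1 CD25WT cell held 56.5% and 41.7% of their UMIs in that library, and their ratios were 2.70 and 1.88 without the top cell of each library. S100a4 had 28.8% of its CD25WT UMIs in 1 cell and stood at 2.22 without the top cells. A UMI of S100a4 was seen in 22.7% of CD25KO and 11.5% of CD25WT follicular cells, against 25.5% and 8.32% of other kept cells. In CD25WT that order ran against the CPM. The other kept cells include those with Ccr2 or Klrg1.

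Lower in CD25KO follicular cells was Gpr83, a receptor gene typical of Tregs, at 13.3 CPM (107 UMIs) against 43.4 CPM (118 UMIs) in CD25WT, a log2 ratio of -1.71 (-2.10 to -1.32). Jun, an AP-1 subunit gene, stood at 10.3 and 30.9 CPM (-1.58), and Bach2, a repressor that holds back effector differentiation, at 12.03 and 33.4 CPM (-1.48). The stress gene Sesn1 stood at 17.2 and 34.2 CPM (-0.99) and Ddit4, an inhibitor of mTORC1, at 95.3 and 180 CPM (-0.92). All 5 were lower in other kept cells of CD25KO as well, at -1.40, -1.62, -0.94, -1.39 and -1.08. Gstp1, a glutathione transferase gene, stood at 19.5 and 65.8 CPM (-1.76), and reads of near-identical genes can be counted for it. The histone gene Hist1h2ap stood at 48.2 and 206 CPM (-2.10), with 23.0% of its CD25WT UMIs in 1 cell, and histone genes resemble one another too. The DNA repair gene Mgmt (-0.99), Itm2a (-0.94), the Myc target gene Cdca7 (-0.92) and the tRNA exportin gene Xpot (-0.90) were the rest of the 12 with Gal, the galanin gene (-1.22). Gal rested on 3 CD25WT cells, 1 of which held 75.3% of its UMIs, and stood at 0.43 without the top cell of each library. Itm2a turned to 0.37 without the cells of highest UMI count and to 0.90 after thinning, and Cdca7 to 0.18 after thinning.

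**Figure D3:**
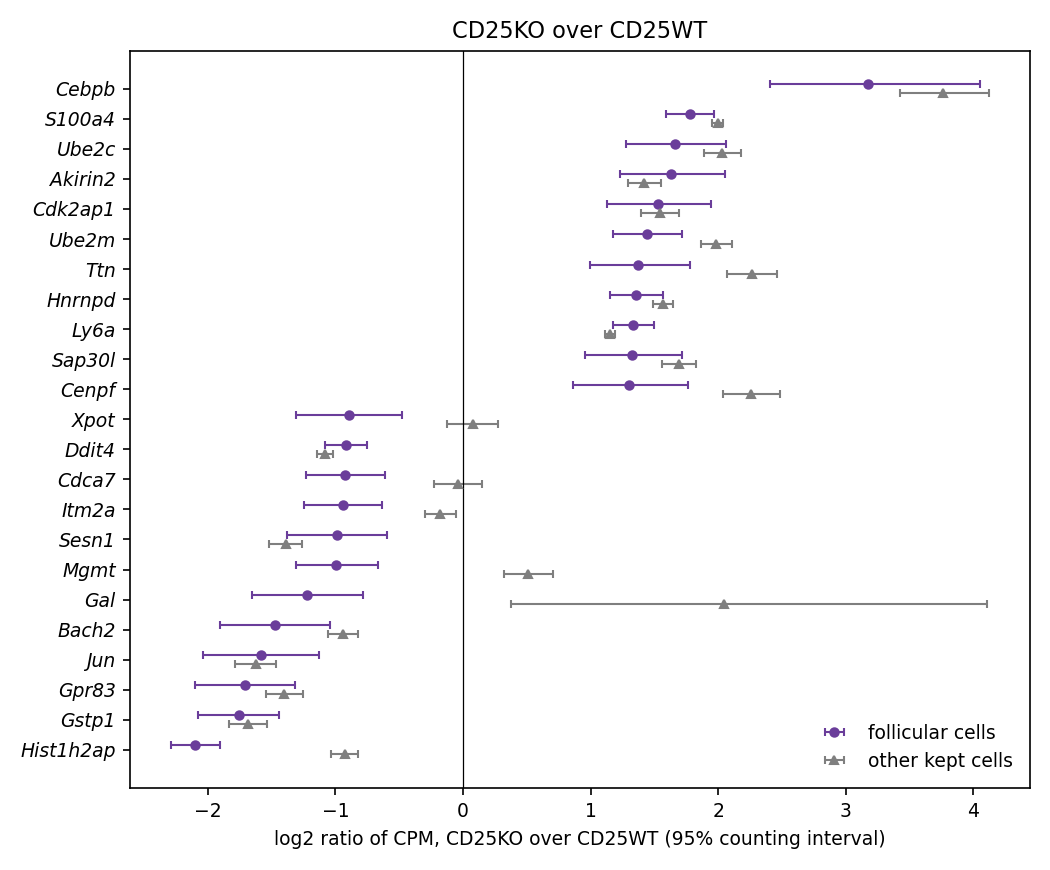
Log2 ratio of CD25KO over CD25WT in follicular cells (circles) and in other kept cells (triangles). Genes are those ranked furthest apart in follicular cells among those averaging 20 CPM or more. Bars are 95% exact conditional Poisson intervals, and Ccl1 is not drawn because it has no finite ratio. Cebpb, Gpr83 and Jun lie on the same side of 0 in both sets of cells, while Gal and Mgmt lie on opposite sides.

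Follicular program genes outside the rule were mostly within 1.5-fold between the libraries. Of 26 measured genes, 1 (Il4) was at least 1.5-fold higher and 3 were as much lower in CD25KO follicular cells, against 5.44% higher and 3.28% lower over all 9043 genes, with a median log2 ratio of -0.20. The list held many genes that were high in follicular cells: 16 of 26 were at least 1.5-fold higher than in other kept cells in both libraries and 0 were lower. Since the rule chose cells by genes of the same program, nothing is read from that count, for which the share over all genes was 7.61% higher and 1.95% lower. Lower between the libraries were Il21 (19.0 CPM in CD25KO and 30.1 CPM in CD25WT, -0.67, interval -1.06 to -0.26), Tox, a relative of Tox2 (226 and 353 CPM, -0.65), and Angptl2, a secreted angiopoietin-like factor (18.0 and 32.3 CPM, -0.85). Il4 stood at 46.6 and 26.8 CPM (0.80, interval 0.43 to 1.18), at 0.06 after thinning, at 2.04 under a stricter cell filter and at -0.63 in cells with a Foxp3 UMI, where Il21 stood at 1.37. Those last 2 ratios rested on few cells, 10 in CD25KO and 4 in CD25WT for Il4 and 8 and 2 for Il21. The transcription factor gene Cebpa stood at 44.4 and 30.5 CPM (0.54). Ascl2, which induces CXCR5, stood at 14.4 and 18.0 CPM (-0.32), and Pou2af1, a transcriptional coactivator gene of lymphocytes, at 20.3 and 29.0 CPM (-0.51).

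Of 12 measured genes that oppose the follicular fate, 6 were at least 1.5-fold lower in follicular than in other cells of both libraries and 0 higher, against 1.95% lower and 7.61% higher over all genes. Prdm1, on this list, was on opposite sides in the libraries, as given above. Klf2, which restrains follicular T cell differentiation, stood at 169 CPM in CD25KO and 115 CPM in CD25WT follicular cells, against 444 and 589 CPM in other kept cells. Ccr7, the T zone homing receptor gene, stood at 33.8 and 46.7 CPM, against 71.0 and 144 CPM. Between the libraries 2 of the 12 were at least 1.5-fold higher in CD25KO follicular cells, namely Prdm1 and Gpr183, the EBI2 receptor gene that positions cells outside germinal centres (239 and 125 CPM, 0.94, interval 0.77 to 1.11), and 0 lower, against 5.44% and 3.28% over all genes. Klf2 stood at 0.56, and at -0.16 after thinning.

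With cells holding Ccr2 or Klrg1 left out, 8 of 19 measured effector genes were higher in CD25KO follicular cells by 1.5-fold or more and 0 lower by as much, with a median log2 ratio of 0.51, against 1.76 in other kept cells. Besides S100a4 these included its relative S100a6 (696 CPM in CD25KO and 339 CPM in CD25WT, 1.04), the chemokine receptor gene Cxcr6 (14.0 and 2.94 CPM, 2.25, from 113 and 8 UMIs) and Batf, an AP-1 factor gene (303 and 182 CPM, 0.73). Of 5 measured genes of tissue Tregs that carry ST2, the receptor for IL-33, 4 were higher, among them Areg, the amphiregulin gene (25.0 and 6.98 CPM, 1.84, from 82 and 15 cells, and 0.81 with at least 3 rule genes), the Th2 factor gene Gata3 (160 and 98.5 CPM, 0.70) and the nuclear receptor gene Rora (72.8 and 38.9 CPM, 0.90). Their median was 0.86, against 1.64 in other kept cells. In follicular cells the effector median was 0.59 when Ccr2 and Klrg1 were not used to bar cells. Cells with Ccr2 or Klrg1 sat among the other kept cells, 744 of 5688 in CD25KO and 176 of 5685 in CD25WT. The rule thus shapes the contrast with other kept cells, and by how much was not tested. Of 10 suppressive genes, 4 were higher and 0 lower, with Areg, the secreted Fgl2 (13.3 and 4.41 CPM, 1.59, 107 and 12 UMIs), the ectonucleotidase gene Entpd1 (10.7 and 6.25 CPM, 0.77) and Ebi3, a subunit of IL-35 (39.1 and 24.6 CPM, 0.67). The counts of these lists stand against 5.44% higher and 3.28% lower over all genes, and the lists share members with each other.

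Treg identity genes were close between the libraries, at a median of 0.12 over 17 genes, with 2 higher, 1 lower and Foxp3 at 14.1 CPM in CD25KO and 16.5 CPM in CD25WT (-0.23, interval -0.74 to 0.31). The lower one was Gpr83. Ikzf2 stood at 2068 and 1837 CPM, against 1485 and 649 CPM in other kept cells. In the cell cycle list of 24 genes, 7 passed 1.5-fold upwards and 2 downwards; the median was 0.31, and -0.02 after thinning. Among the higher ones were the cyclin gene Ccnb1 (23.2 and 6.25 CPM, 1.89, from 51 and 8 cells), Ccna2 (1.05) and Birc5 (0.97). The lower ones were the replication genes Mcm2 (20.6 and 32.0 CPM, -0.64) and Mcm5 (34.5 and 57.7 CPM, -0.74). A difference between cell cycle phases was not tested. Cells with a UMI of the proliferation genes Mki67 or Top2a were 19.3% (17.1 to 21.6) of CD25KO and 17.8% (14.0 to 22.1) of CD25WT follicular cells, and these intervals overlap. The interferon list of 19 genes stood at a median of 0.32, with Oas3 (1.16) among the higher ones. Of 13 glycolysis genes and of 13 T cell receptor complex genes, 0 were 1.5-fold apart in either direction. Of 13 cholesterol synthesis genes, 2 were lower and 0 higher. Over all genes the shares were 5.44% higher and 3.28% lower, beside which each of these lists is to be read.

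**Figure D4:**
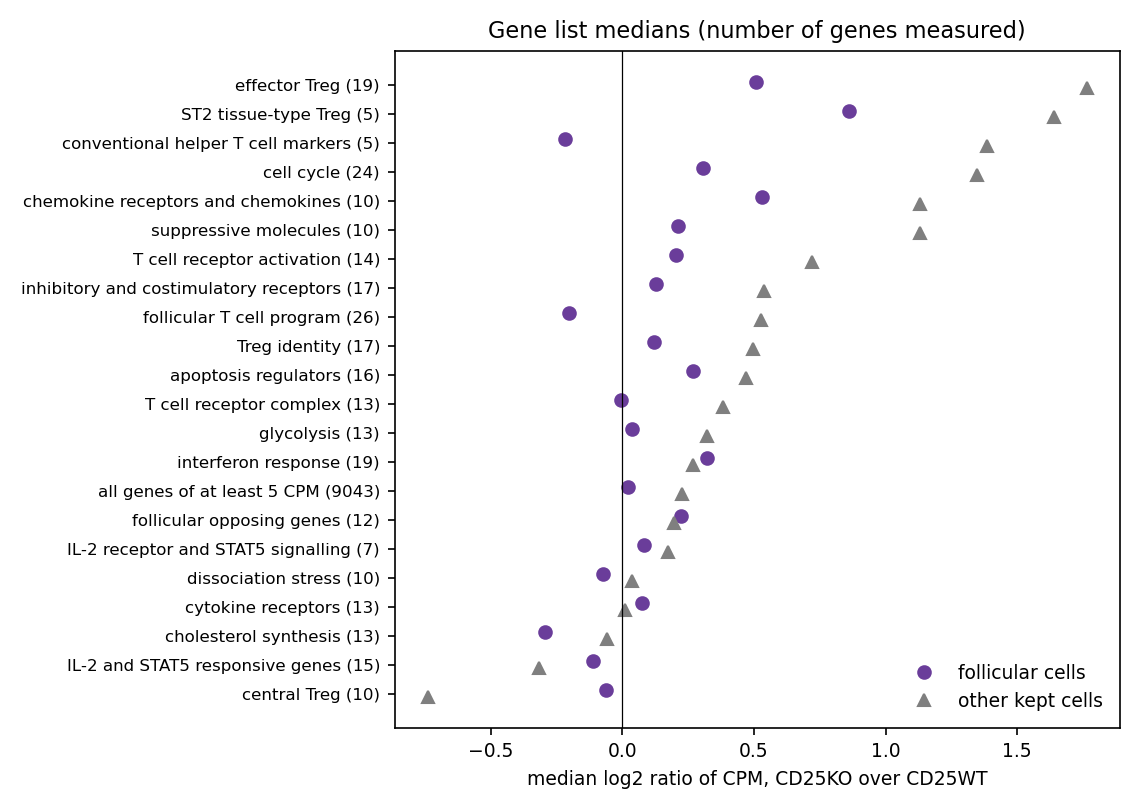
Median log2 ratio of CD25KO over CD25WT for each gene list in follicular cells (circles) and other kept cells (triangles). Members averaged 5 CPM or more in follicular cells, and each list drawn has at least 5 such members. Among the lists drawn, the ST2 tissue-type, chemokine and effector lists stand highest in follicular cells (0.86, 0.53 and 0.51). They stand higher still in other kept cells (1.64, 1.13 and 1.76), which include the cells with Ccr2 or Klrg1 that the rule bars.

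Set against the other kept cells, follicular cells differed in genes the rule did not name, which describes cells chosen by correlated genes and supports nothing about them. Of 7297 genes, 86 (1.18%) exceeded their level in other kept cells by 2-fold or more in both libraries and 50 (0.685%) lay as far below it. The median log2 ratio over these genes was 0.09 in CD25KO and 0.29 in CD25WT, where other kept cells held a larger ribosomal share, and ratios are read against that shift. With TMM factors the counts were 51 and 91, with median-of-ratios factors 50 and 91, and with ribosomal protein and mitochondrial genes left out of the total 111 and 100, so the balance of higher and lower genes depends on the scaling. In the CD25KO library alone 91 genes (1.25%) were that much higher and 69 (0.946%) lower, and in CD25WT 572 (7.84%) and 115 (1.58%).

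The highest included Cebpa, at 44.4 CPM in CD25KO and 30.5 CPM in CD25WT follicular cells, against 4.96 and 0.711 CPM in other kept cells, and Il4, against 7.48 and 1.21 CPM. Penk, the enkephalin precursor gene, stood at 180 and 105 CPM, against 63.8 and 16.0 CPM, and Egr2, an early target of T cell receptor signalling, at 58.5 and 47.0 CPM, against 19.3 and 8.99 CPM. Tbc1d4, a Rab GTPase activating protein gene, was the most abundant of them, at 549 and 634 CPM, against 196 and 133 CPM. Itgb8, an integrin gene whose product activates TGF-beta, stood at 92.9 and 110 CPM, against 35.4 and 13.4 CPM, and the tetraspanin gene Cd81 at 204 and 166 CPM, against 77.0 and 49.5 CPM. The membrane fusion gene Stx11, Sccpdh, the receptor gene Cd160, the G protein regulator gene Rgs16, Marcksl1, the glycolysis gene Tpi1, the transcription factor gene Bhlhe40 and Bcl6 made up the rest of the 15, with log2 ratios from 1.35 (Bhlhe40) to 2.25 (Bcl6) in CD25KO and from 1.84 (Tpi1) to 3.47 (Sccpdh) in CD25WT. In the list of 14 genes induced by the T cell receptor, 11 passed 1.5-fold upwards in follicular cells of both libraries and 0 lower. Among them were Egr2, Egr3, Nr4a3 and Batf. Over all genes the shares were 7.61% and 1.95%, for genes that entered by their level in follicular cells alone. All 14 listed genes passed that minimum. Between the libraries 3 of the 14 were higher in CD25KO follicular cells (Nr4a3, Egr3 and Batf, from 0.73 to 0.87) and 0 lower, against 5.44% and 3.28% over all genes.

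The lowest genes in follicular cells included several of central Tregs. Satb1, a chromatin organiser, stood at 26.7 CPM in CD25KO and 34.2 CPM in CD25WT follicular cells, against 109 and 193 CPM in other kept cells. Igfbp4, a binding protein gene for insulin-like growth factors, stood at 1.24 and 12.5 CPM, against 15.2 and 126 CPM. Ly6c1, a surface antigen gene, stood at 0.248 CPM (2 UMIs) and 10.3 CPM (28 UMIs), against 23.1 and 101 CPM. Ifngr1, a chain of the interferon-gamma receptor, stood at 52.7 and 29.8 CPM, against 160 and 126 CPM. In the central Treg list 7 of 10 genes were lower by 1.5-fold or more in both libraries and 0 higher, and in the interferon list 8 of 19 were lower and 0 higher, against 1.95% lower and 7.61% higher over all genes. Also among the 10 lowest were the interferon-induced Ifit1bl1, the surface receptor gene Cd7, the small GTPase gene Arl4c, Tent5a and Rasgrp2.

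**Figure D5:**
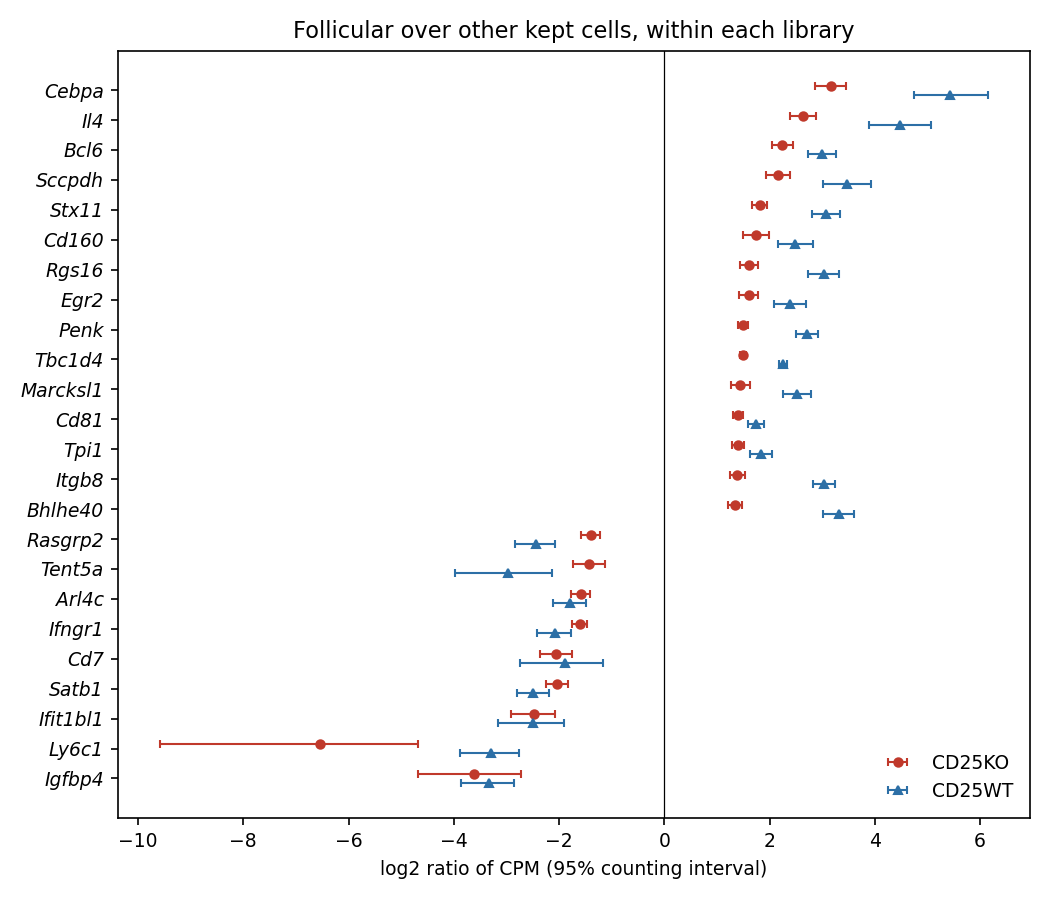
Log2 ratio of follicular over other kept cells in CD25KO (circles) and CD25WT (triangles) for genes far apart in both libraries; bars are 95% exact conditional Poisson intervals. Cebpa and Il4 lie highest and Ly6c1 and Igfbp4 lowest, on the same side of 0 in both libraries.

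Some genes stood further apart between the libraries in other kept cells than in follicular cells. The interferon-induced Ifitm2 stood at 63.6 CPM in CD25KO and 59.9 CPM in CD25WT follicular cells (log2 ratio 0.09), against 67.0 and 9.02 CPM in other kept cells (2.89). The chemokine gene Ccl5 stood at 107 and 76.8 CPM (0.48), against 305 and 33.2 CPM (3.20), and Nkg7, a cytotoxic granule gene, at 76.6 and 75.7 CPM (0.02), against 158 and 28.7 CPM (2.46). Cxcl10 (0.58 against 2.55), Lgals3 (0.86 against 2.79) and Bhlhe40 (0.61 against 2.57) followed. In CD25WT these 6 genes were higher in follicular than in other kept cells. Their log2 ratios ran from 0.33 (Lgals3) to 3.31 (Bhlhe40), against a median of 0.29 over all genes. In CD25KO Nkg7 (-1.04), Lgals3 (-1.61) and Ccl5 were lower. By the rule, cells with Ccr2 or Klrg1 sat only among the other kept cells, 744 of 5688 in CD25KO and 176 of 5685 in CD25WT. The part of that exclusion in these ratios was not tested. In CD25WT 1 cell held 40.7% of the follicular Ccl5 UMIs and 1 cell 46.3% of those of Lgals3, and without the top cell of each library Ccl5 stood at 1.07 and Lgals3 at 1.63. Without that cell Lgals3 was at 8.13 CPM in CD25WT follicular cells, against 12.02 CPM in other kept cells, so it was then the lower one. Between the libraries Lgals3 stood at -0.24 after thinning. In the opposite direction Bcl2 stood at -0.31 in follicular and -1.39 in other kept cells, Atp1b1, a sodium pump subunit gene, at -0.59 and -1.72, and Filip1l at 0.39 and -0.69. The Ras regulator genes Rasa3 (1.05 and -0.12) and Rasgrp2 (0.72 and -0.32) and the cytoskeletal adaptor gene Pdlim1 (0.48 and -0.58) lay on opposite sides of 0, and Rasgrp2 stood at -0.34 in follicular cells after thinning. Whether these ratios differ between the sets of cells was not tested, since each set came from the same pair of libraries.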

How the data were processed

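Gene by barcode tables of UMI counts were deposited by the authors, 1 per library. Per the file headers the software was Cell Ranger 6.0.0, and per the submitters' processing notes the build was mm10; an annotation for counting was not given in the sources used here. From these counts, cells were kept by genes (500), mitochondrial share (10%) and Cd79a, and counts were summed per library over follicular and over other kept cells and scaled to CPM. Shares have Clopper-Pearson intervals and CPM ratios exact conditional Poisson intervals, both for counting error only, since each group was 1 library. No doublet caller was run; an alternative left out the 5% of cells with most UMIs. Thinning to 2000 UMIs left out 361 CD25KO and 61 CD25WT kept cells.

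Genes of at least 10 CPM on average were counted at 2-fold, and list members of at least 5 CPM at 1.5-fold. The minimum for list members, and for the shares over all genes beside them, was taken on follicular cells alone. Named genes were those of the rule and the IL-2 axis, the 12 furthest apart in each direction between the libraries (at least 20 CPM, same direction with 2 and with 3 or more rule genes), the 15 highest and 10 lowest against other kept cells in both libraries, the 6 in each direction whose ratio differed most between follicular and other cells, and up to 4 per list; others were named after their values were seen. The members and lists were chosen with earlier results of these data known. Alternatives without barcodes shared by the libraries and without each gene's top cell were added after seeing the data. Aldoa, which has a duplicated symbol, was left out, and H2az1 was not matched. Some genes that the rules for naming took are not reported here. Gene positions came from GENCODE M21 and promoters from RefSeq (GRCm38.p6). Python 3.11.15, numpy 2.4.6, scipy 1.17.1, pandas 2.3.3 and matplotlib 3.10.9 were used, with edgeR 4.0.16 for TMM factors alone. The scripts were tested on simulated data.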

Additional observations from a re-analysis of the deposited data

Results flagged for a closer look

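In 14 named genes the ratio between CD25KO and CD25WT (log2) was on one side of 0 in follicular cells and on the other side in other kept cells. The difference was not tested, because each set of cells came from 1 library per group. Lower in CD25KO follicular cells and higher in other CD25KO cells were the helper cytokine gene Il21 (-0.67 and 1.39), the interferon-gamma gene Ifng (-1.02 and 1.70), the secreted factor gene Angptl2 (-0.85 and 1.53) and Mgmt (-0.99 and 0.51). The same order was seen for the integrin gene Itgb8 (-0.25 and 1.40), Tbc1d4 (-0.21 and 0.56), Cd160 (-0.38 and 0.37) and Gal (-1.22 and 2.05), the last of which rested on 3 CD25WT follicular cells. Higher in CD25KO follicular cells and lower in other CD25KO cells were Rasa3 (1.05 and -0.12), Rasgrp2 (0.72 and -0.32), Pdlim1 (0.48 and -0.58), Klf2 (0.56 and -0.41) and the interferon response gene Ifit1 (0.56 and -0.13). The chemokine gene Xcl1 (1.85 and -0.48) had UMIs in 3 CD25WT follicular cells, and 1 of these held 66.7% of them. Over the settings tried, the follicular ratio of Ifit1 ran from -2.27 to 2.63, so its side of 0 was not stable. The follicular ratios of Il21, Ifng, Gal, Rasgrp2 and Klf2 also changed sign in some setting.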

How the results depend on the processing

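The share meeting the rule was higher in CD25KO than in CD25WT in every one of the settings tried. In CD25KO and CD25WT it was 8.88% and 2.74% after thinning, 7.35% and 2.56% with at least 3 rule genes, 13.3% and 3.57% with a stricter cell filter (1000 genes, 5% mitochondrial), 16.5% and 5.34% without the cells of highest UMI count, and 14.5% and 3.63% among cells with a Foxp3 UMI. With Sostdc1, Tox2, Cxcr5, Pdcd1 or Il1r2 left out of the rule it was 15.9% and 5.34%, 13.0% and 4.69%, 16.1% and 4.89%, 10.7% and 3.42%, and 13.6% and 5.34%. Without Tshz2 it was 15.8% in CD25KO, without the exclusion of Ccr2 and Klrg1 18.5% in CD25KO, and among CD25WT cells without an Il2ra UMI 7.42%. The ratio of the shares ranged from 2.37 against CD25WT cells without an Il2ra UMI to 3.99 among cells with a Foxp3 UMI, with 2.54 without Il1r2, 3.29 without Cxcr5 and 3.74 under the stricter filter.

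Counts of genes at least 2-fold higher and lower in CD25KO follicular cells (47 and 25) were 405 and 289 after thinning, 115 and 68 with 3 rule genes, 112 and 62 under the stricter filter, 81 and 54 without Pdcd1, 737 and 370 among cells with a Foxp3 UMI, 73 and 54 without ribosomal and mitochondrial genes in the total, 99 and 57 at 5 CPM, and 25 and 13 at 20 CPM; 71 were higher without Il1r2. Counts of genes at least 2-fold higher and lower in follicular than in other cells (86 and 50) were 51 and 91 with TMM, 50 and 91 with median-of-ratios factors, 133 and 83 with 3 rule genes, and 173 and 86 at 5 CPM. After thinning 148 were higher, at 20 CPM 54 were higher, and without ribosomal and mitochondrial genes 100 were lower.

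Of 80 named genes at least 1.5-fold apart between the libraries, 18 changed sign in some setting. After thinning these were Itm2a (0.90), Cdca7 (0.18), Rasgrp2 (-0.34), Lgals3 (-0.24), Cdkn1a (-0.088), Hba-a2 (1.82), Hbb-bt (2.37), Hba-a1 (1.44), Hbb-bs (0.39) and the erythroid median (1.63). Among cells with a Foxp3 UMI they were Hist1h2ap (1.67), Il4 (-0.63), Sccpdh (-0.17), Il21 (1.37), Egr3 (-0.13), Ccr6 (-0.91), Sqle (0.26) and Ifng (0.67). That setting held 100 CD25KO and 35 CD25WT follicular cells, of which 10 and 4 had Il4 and 8 and 2 had Il21. Itm2a was at 0.37 without the cells of highest UMI count, and Gal at 0.43 without its top cells. Hba-a2, Hbb-bt, Hba-a1, Hbb-bs and their list median were at 0.13, 0.43, 0.19, 0.20 and 0.19 without the cells of highest UMI count, at 3.29, 3.73, 3.68, 3.32 and 3.50 with CD25WT cells limited to those without an Il2ra UMI, and at 0.12, 0.56, 0.22, 0.034 and 0.17 without cells of other lineages. Without their top cells Hba-a2, Hbb-bt and Hba-a1 were at 0.076, 0.38 and 0.094. The cause was not tested in any of these.

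No paired analysis was possible because each group was 1 library. No replicate was left out for the same reason. The 366 CD25WT follicular cells and their 2721968 UMIs limit precision, since a gene at 10 CPM there rests on few UMIs.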

Other observations

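Of 17 inhibitory and costimulatory receptor genes 1, Cd226 (58.0 CPM in CD25KO and 34.9 CPM in CD25WT), was higher by 1.5-fold or more and 0 lower by as much; the median log2 ratio was 0.13, and 8 were at least 1.5-fold higher and 2 as much lower in follicular than in other kept cells of both libraries, against 7.61% and 1.95% over all genes. The checkpoint gene Lag3 stood at 115 CPM in CD25KO and 101 CPM in CD25WT follicular cells, against 52.8 and 13.6 CPM in other kept cells, and the activation marker gene Cd83 at 142 and 132 CPM, against 60.3 and 20.7 CPM. Of 13 cytokine receptor genes 3 were higher and 2 lower in CD25KO follicular cells: Ifngr1 (0.82), Il18r1 (0.86) and Il12rb1 (0.73) were higher, and Il4ra (-0.79) and Il6ra (-0.60), receptor chains for IL-4 and IL-6, were lower.

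Of 10 chemokine and chemokine receptor genes 4 were higher and 0 lower, with a median of 0.53, among them Ccr4 (15.1 and 8.82 CPM, 0.78) and Cxcr6. Of 16 apoptosis regulators 1, the pro-apoptotic Pmaip1 (12.1 and 5.51 CPM, 1.14), was higher and 0 lower. Of 10 dissociation stress genes 0 were higher and 1, Jun, was lower. These counts stand against 5.44% higher and 3.28% lower over all 9043 genes.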
